A study of Rattus norvegicus with 7 samples.

Results

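The genes described here are those of polyamine synthesis and its control: the antizyme inhibitor Azin1, the ornithine decarboxylase Odc1, the antizymes Oaz1 and Oaz2, the S-adenosylmethionine decarboxylase Amd1, the spermidine and spermine synthases Srm and Sms, the acetyltransferase Sat1 and the spermine oxidase Smox. They are 9 of the 17147 gene symbols with a value in every library. The set was chosen by pathway, and it was taken up because the measured level of Azin1 was higher on the ISB-P film than on the PCL film in these same libraries. The ISB-P and PCL values of the 9 genes are therefore given as a description, with no p-value for a gene, and counts of calls are given only beside the share of all genes called. A gene was tested if 3 or more of the 6 film libraries reached 1 FPKM, and 8 of the 9 genes met this, as did 9467 of the 17147 in all. FPKM is a measure of transcript level that allows for transcript length and library size.

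The libraries were made from rat bone marrow mesenchymal stem cells (rMSCs), the adherent stromal cells that can form bone, cartilage and fat, 4 h after 20000 cells were seeded. ISB-P, a polyurethane copolymer film that carries propoxylated isosorbide, had 3 libraries. PCL, a polycaprolactone film, had 3, and TCP, plain tissue culture plastic, had 1. The films were 16 mm in diameter and sterilised with ethylene oxide, and all groups were kept in the same serum-containing alpha MEM. The study asked why cells attach so well to ISB-P. The cells came from the marrow of 1 male Sprague-Dawley rat, 6 weeks old, with no genetic change or drug in any group. Nothing in the sources used here says that replicates of a film were separate animals or isolations, so the spread between them may be technical.

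The labelled cell type was checked against marker genes. All 7 mesenchymal markers listed were present, among them Col1a1 at 4936 ± 1071 FPKM on ISB-P and 5369 FPKM on PCL (means, n = 3), and Thy1 at 960 and 1001 FPKM. The haematopoietic progenitor marker Cd34 and the haemoglobin genes Hbb and Hba1 were listed at 0 in every library. A listed 0 may be a failed estimate, as described for Srm below, so these give no level. Leukocyte and macrophage markers were present at low levels: of 9 listed, 7 were among the gene symbols, and 4 of these reached a mean of 1 FPKM. Cd14 was the most abundant of these markers. Their summed level was 59.02 FPKM on TCP, between 23.2 and 26.7 FPKM on PCL and between 19.4 and 22.1 FPKM on ISB-P. The summed osteoblast markers, of which Sp7 was the most abundant, were at 16.4 FPKM on TCP and between 4.18 and 8.75 FPKM on the films, and the summed adipocyte markers, led by Plin1, were at 4.79 FPKM on TCP and between 0.404 and 0.922 FPKM on the films. Col1a1 was at 10406 FPKM on TCP and between 3868 and 6058 FPKM on the films, and the summed mesenchymal markers were at 12646 FPKM against 6548 to 7953 FPKM. The TCP library thus stood apart from all 6 film libraries in Col1a1 and in each of these sums. The mesenchymal sum was mostly Col1a1, so it adds little to the Col1a1 values, and its members did not all go the same way. Thy1, Eng, Pdgfrb and Col1a1 had means below TCP on both films. Itgb1 and Nt5e had means above TCP on both films, and Cd44 had a mean above TCP on ISB-P only. Some markers also differed between the films. Pdgfrb, a growth factor receptor of stromal cells, was at 110, 97.4 and 86.6 FPKM on ISB-P (replicates 1, 2 and 3) and at 177, 167 and 154 FPKM on PCL, with no overlap. Cd14 was at 11.2, 11.4 and 10.9 FPKM on ISB-P and at 14.4, 16.6 and 14.9 FPKM on PCL, again with no overlap, and Sp7 had means of 5.49 and 7.06 FPKM. Others went the other way in each replicate number, with ISB-P to PCL ratios of 1.14, 1.05 and 1.33 for Cd44 and 1.14, 1.04 and 1.37 for Itgb1. Kdr and Ptprc, with means below 1 FPKM on both films, were also above PCL in each. Of the 11 markers that passed the filter, limma called none without a replicate block. With it, Pdgfrb, Cd14 and Sp7 were called lower on ISB-P and none higher, against 11.4% and 13.0% of all genes. The part of these markers in the differences between ISB-P and PCL given here was not tested.

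Polyamines are small, positively charged molecules that bind nucleic acids and are needed for translation and cell growth. Ornithine decarboxylase makes putrescine from ornithine. S-adenosylmethionine decarboxylase supplies the aminopropyl donor with which spermidine synthase and spermine synthase lengthen putrescine in turn. Antizymes hold the pathway in check. When polyamines are plentiful, the ribosome shifts frame on the antizyme mRNA and full-length antizyme is made, which binds ornithine decarboxylase, sends it to the proteasome without ubiquitin and lowers polyamine uptake. The antizyme inhibitor resembles ornithine decarboxylase, has no decarboxylase activity and binds antizyme in its place, which frees the enzyme. Because much of this control acts on protein, the transcript levels given here are not enzyme activities.

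Promoter sequences show what start-site elements these genes carry. RefSeq promoters of the rat assembly GRCr8 were found for 8 of the 9 genes, Azin1 being the one not found. They cover 250 bases before the annotated start. The TATA letters TATAA were searched on both strands in the 60 bases before the start and the E-box letters CACGTG, a motif bound by Myc and its partner Max, in all 250. TATAA was found for Odc1, Amd1 and Oaz1, 3 of 8, against 6.94% of 33469 promoters. CACGTG was found for Oaz1 and Srm, 2 of 8, against 5.59%. The GC-box letters GGGCGG, which overlapped neither of the others in these genes, were found for 7 of 8 against 30.5%, the exception being Smox. These are matches of letters and no binding was measured, and a motif not found in this window may lie elsewhere. The TATAA windows are shown because they lie at a like distance in the 3 genes, with the first base 32, 29 and 28 bases before the start in Odc1, Amd1 and Oaz1. Each is the 60 bases ending at the base before the start, printed on the gene's strand with the motif in capitals. In Amd1 the capitals cover TATAA on both strands, which overlap.
Odc1, chr6:46058605-46058664, plus strand: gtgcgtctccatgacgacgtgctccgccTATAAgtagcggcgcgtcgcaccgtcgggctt
Amd1, chr20:45265983-45266042, minus strand: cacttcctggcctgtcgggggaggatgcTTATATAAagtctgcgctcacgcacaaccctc
Oaz1, chr7:9536991-9537050, minus strand: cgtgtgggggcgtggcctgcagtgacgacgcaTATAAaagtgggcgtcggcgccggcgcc

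The 2 members with CACGTG had it 234 bases (Oaz1) and 173 bases (Srm) before the start. Their windows are shown, with the motif in capitals, because Odc1 is a known Myc target and its own 250 bases did not hold these letters.
Oaz1, chr7:9537181-9537240, minus strand: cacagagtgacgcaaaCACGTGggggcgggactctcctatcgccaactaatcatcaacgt
Srm, chr5:164308802-164308861, plus strand: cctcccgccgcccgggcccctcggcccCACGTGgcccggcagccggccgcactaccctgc

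Azin1, the inhibitor of the antizymes, had the largest difference between the films among these genes. Replicates 1, 2 and 3 of ISB-P had 51.9, 92.1 and 169.9 FPKM, and the same replicates of PCL had 25.7, 53.4 and 59.97 FPKM, with 37.5 FPKM on TCP. The groups overlapped, since ISB-P replicate 1 lay below PCL replicates 2 and 3. The means were 105 ± 59.95 FPKM on ISB-P and 46.4 ± 18.2 FPKM on PCL (SD, n = 3), and the fitted difference of log2(FPKM + 1) was 1.08 ± 0.48 (SE, limma). It moved with single libraries, to 0.65 without ISB-P replicate 3, 0.71 without PCL replicate 1 and to its highest value, 1.4999, without ISB-P replicate 1, and less with a replicate number of both films left out (0.88 to 1.24). Within a replicate number, ISB-P was 2.02, 1.72 and 2.83 times PCL in replicates 1, 2 and 3. Each ISB-P library was therefore above the PCL library of the same number, and ISB-P replicate 3 was the highest of the 7 libraries.

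Odc1, the enzyme that starts the pathway, was also higher on ISB-P, and its groups did not overlap. It was at 122.5, 147.1 and 182.9 FPKM on ISB-P and at 78.4, 96.6 and 106.7 FPKM on PCL (replicates 1, 2 and 3), with 78.5 FPKM on TCP. The lowest ISB-P library was above the highest PCL library. The means were 151 ± 30.4 and 93.9 ± 14.3 FPKM (SD, n = 3), the fitted difference was 0.67 ± 0.19 (log2, SE), and the ratio within a replicate number was 1.56, 1.52 and 1.71. These ratios were closer to each other than those of Azin1.

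**Figure D1:**
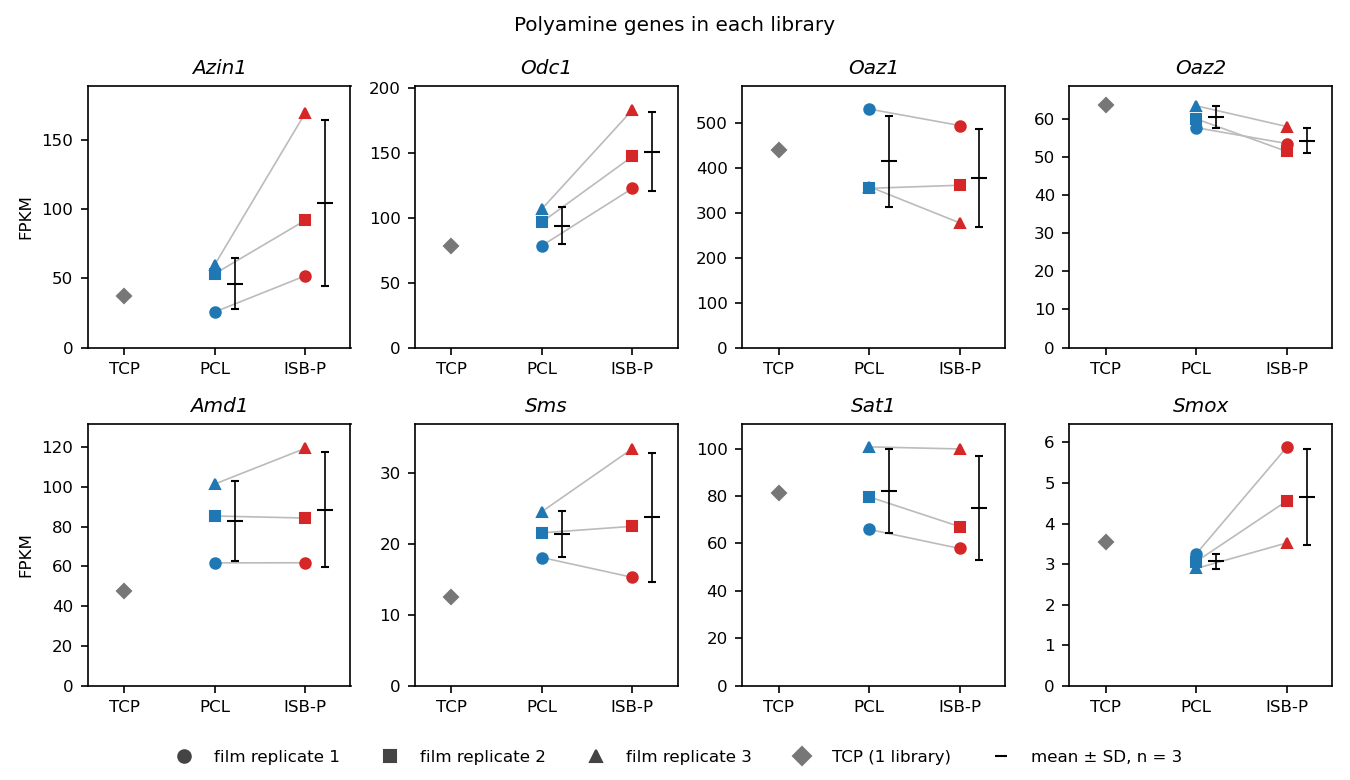
Level (FPKM, linear axes from 0) of 8 polyamine genes in each library, with grey lines joining the PCL and ISB-P libraries of the same replicate number and black bars for the mean ± SD of 3 libraries. All 3 lines slope upward for Azin1, Odc1 and Smox, from a PCL mean of 46.4, 93.9 and 3.07 FPKM to an ISB-P mean of 105, 151 and 4.65 FPKM.

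The antizymes did not show this pattern. Oaz1, the most abundant member in every library, was at 493, 361 and 277 FPKM on ISB-P, at 530, 354 and 358 FPKM on PCL and at 439 FPKM on TCP. The films overlapped widely, and the highest library on each film was replicate 1, the library in which Azin1 was lowest. The fitted difference was -0.15 ± 0.25 (log2, SE), and it changed sign, to 0.05, without ISB-P replicate 3 and, to 0.04, without PCL replicate 1. Oaz2, a second antizyme with the same target, was at 53.5, 51.4 and 57.9 FPKM on ISB-P, at 57.6, 59.9 and 63.3 FPKM on PCL and at 63.4 FPKM on TCP. Its groups overlapped by a narrow margin, with a difference of -0.15 ± 0.12 (log2, SE) and an ISB-P to PCL ratio of 0.928, 0.858 and 0.914 within replicates 1, 2 and 3. The SD between replicates of Oaz2 was 3.33 FPKM on ISB-P and 2.88 FPKM on PCL (n = 3).

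The genes that make spermidine and spermine had small differences between the films, with wide intervals where no replicate block was used. Amd1, which decarboxylates S-adenosylmethionine, was at 61.8, 84.3 and 119 FPKM on ISB-P and at 61.8, 85.3 and 101 FPKM on PCL, with 47.7 FPKM on TCP. Replicates 1 and 2 of the films were nearly equal, and the difference was 0.07 ± 0.28 (log2, SE), with a 95% interval from -0.60 to 0.74. With the replicate block the interval was -0.10 to 0.25. Sms, spermine synthase, was at 15.3, 22.5 and 33.4 FPKM on ISB-P and at 18.1, 21.5 and 24.5 FPKM on PCL, with 12.5 FPKM on TCP. The PCL values lay inside the ISB-P range, and the difference was 0.09 ± 0.28 (log2, SE, 95% interval -0.57 to 0.75). With the replicate block the interval for Sms was -0.18 to 0.35. For Amd1 and Sms the sign turned without ISB-P replicate 3 (to -0.17 and -0.19) and without PCL replicate 1 (to -0.12 and -0.02), so no direction is given. Srm, spermidine synthase, was listed at 0 in all 7 libraries. It was one of 3609 genes of the table at 0 throughout, among them 4 of 76 ribosomal protein genes, which every cell uses, so a listed 0 may be a failed estimate and gives no level for Srm.

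The catabolic genes differ widely in level. Sat1, which acetylates spermidine and spermine for export or breakdown, was at 57.9, 67.1 and 99.9 FPKM on ISB-P, at 65.9, 79.7 and 101 FPKM on PCL and at 81.1 FPKM on TCP. The groups overlapped, and the difference was -0.15 ± 0.25 (log2, SE), with a sign that turned to 0.02 without ISB-P replicate 1 and to 0.01 without PCL replicate 3, while it stayed below 0 without any 1 replicate number of both films (-0.13, -0.10 and -0.21 without replicates 1, 2 and 3). Within a replicate number the ISB-P to PCL ratio was 0.878, 0.842 and 0.991. Smox, which oxidises spermine back to spermidine, had the lowest level of the 8 genes with a value. It was at 5.88, 4.56 and 3.52 FPKM on ISB-P, at 3.25, 3.06 and 2.89 FPKM on PCL and at 3.53 FPKM on TCP. The films did not overlap for Smox, although ISB-P replicate 3 was level with TCP. The difference was 0.45 ± 0.17 (log2, SE), on a scale that understates the change of so low a gene, and the ratio within a replicate number was 1.81, 1.49 and 1.22.

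Across all genes tested, limma with Benjamini-Hochberg adjustment called 1.10% higher on ISB-P and 0.623% lower at an adjusted p under 0.05. None of the 8 members was called in either direction. At an unadjusted p under 0.05 the same test gave 2 of 8 members higher (Odc1 and Smox) and 0 lower, against 5.51% and 6.58% of all genes. A block for the replicate number gave calls for 3 of 8 that were higher (Azin1, Odc1 and Smox) and 0 lower, against 13.0% and 11.4% of all genes. With every library scaled to the same total, or with quantile normalization, the block also called Oaz2 and Sat1 lower. Over all genes, the block with the same total called 711 higher and 2111 lower. The call of Smox was lost without replicate 1 of both films, where its difference was 0.33 in place of 0.45 (log2), and the difference was 0.30 without ISB-P replicate 1 alone. The differences are the same in both fits, and the SE of Azin1 fell from 0.48 to 0.12. All 3 ISB-P libraries lay above all 3 PCL libraries for 2 of 8 members (Odc1 and Smox), against 8.17% of all genes, and below for 0, against 9.54%. The median difference was 0.08 (log2) over the 8 members and 0.02 over all genes tested. Because the set was taken up for the level of Azin1 in this contrast, its calls were favoured in advance, and nothing is read from these counts and shares.

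**Figure D2:**
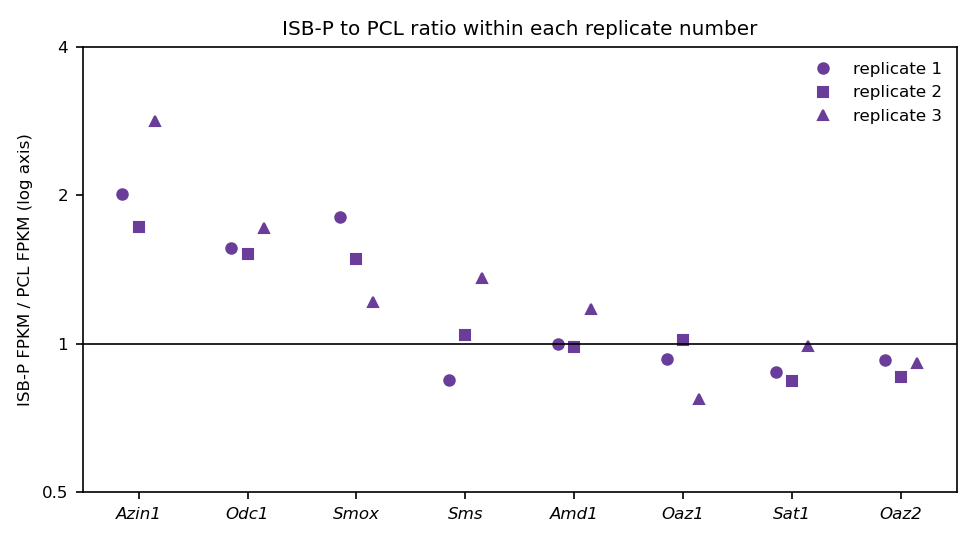
Ratio of the ISB-P level to the PCL level (FPKM, logarithmic axis) of 8 polyamine genes within replicate numbers 1, 2 and 3, with a line at 1 for equal levels. All 3 points lie above 1 for Azin1 (1.72 to 2.83), Odc1 (1.52 to 1.71) and Smox (1.22 to 1.81), all 3 lie below 1 for Oaz2 and Sat1, and the points of Amd1, Sms and Oaz1 lie on both sides.

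Since FPKM is scaled for length, the levels of the genes can be set against each other within a library, where a factor common to the whole library cancels. Oaz1 exceeded Odc1 in all 7 libraries. The Oaz1 to Odc1 ratio was 4.03, 2.45 and 1.52 on ISB-P, 6.76, 3.66 and 3.35 on PCL and 5.59 on TCP. The ISB-P ratio was 0.596, 0.669 and 0.452 times the PCL ratio of the same replicate number, although the ranges of the films overlapped. The summed transcripts of the antizymes against those of the proteins they bind, (Oaz1 + Oaz2) to (Odc1 + Azin1), gave 3.14, 1.72 and 0.95 on ISB-P, 5.64, 2.76 and 2.53 on PCL and 4.33 on TCP. ISB-P replicate 3 was the only library of the 7 in which Odc1 and Azin1 together were above the antizymes. The margin was narrow, and the levels of Odc1 and Oaz1 are uncertain for the reason given below. The Azin1 to Odc1 ratio was 0.424, 0.626 and 0.929 on ISB-P and 0.328, 0.553 and 0.562 on PCL, with 0.478 on TCP, so Azin1 stayed below Odc1 in every library. These ratios are made of the values that chose the genes and are a description.

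**Figure D3:**
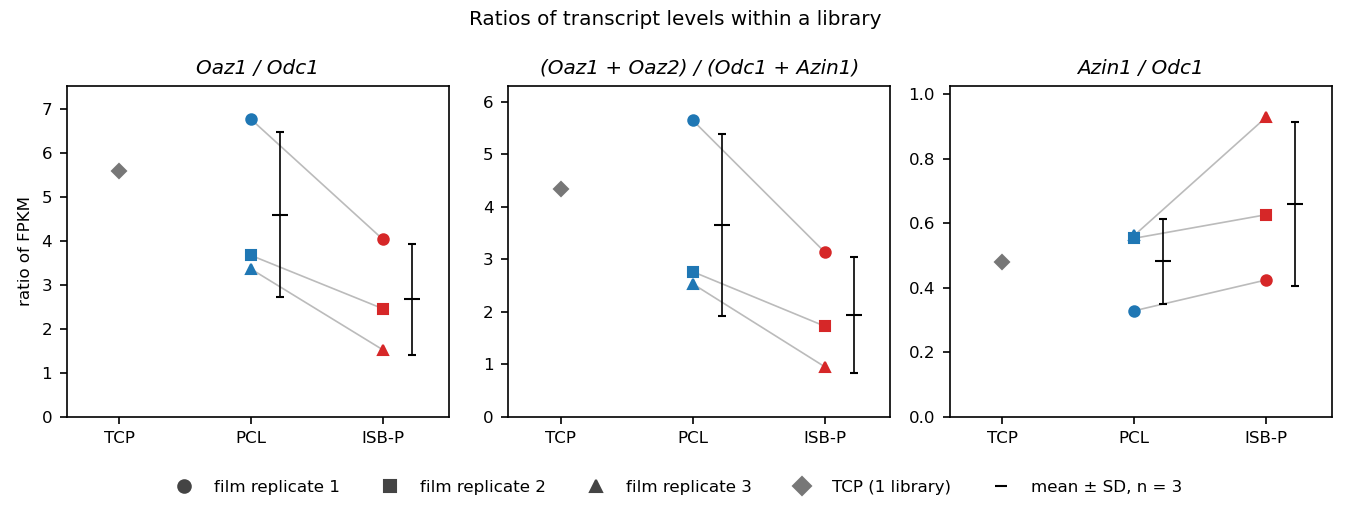
Ratios of FPKM within each library (linear axes from 0) for Oaz1 to Odc1, for both antizymes to Odc1 plus Azin1, and for Azin1 to Odc1, with grey lines joining films of the same replicate number and bars for the mean ± SD of 3 libraries. Both antizyme ratios are lower on ISB-P in each of the 3 replicate numbers, with means of 2.67 against 4.59 for Oaz1 to Odc1 and 1.94 against 3.64 for the sums.

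The order of levels on ISB-P was Oaz1, Odc1, Azin1, Amd1, Sat1, Oaz2, Sms and Smox from highest to lowest mean FPKM. Neighbours whose 3 libraries did not overlap were Oaz1 and Odc1, Oaz2 and Sms, and Sms and Smox. From Odc1 down to Oaz2 each gene overlapped the next. On PCL the order was Oaz1, Odc1, Amd1, Sat1, Oaz2, Azin1, Sms and Smox, and on TCP it was Oaz1, Sat1, Odc1, Oaz2, Amd1, Azin1, Sms and Smox. By mean, Azin1 was thus the last before Sms on PCL and TCP and came next after Odc1 on ISB-P, although there its range (51.9 to 169.9 FPKM) took in those of Amd1 and Sat1. In ISB-P replicate 1 it was the last before Sms too, at 51.9 FPKM against 53.5 FPKM for Oaz2. On PCL its range overlapped that of Oaz2. Oaz1 was above 98.5% of all 17147 genes on ISB-P, Odc1 above 96.2%, Azin1 above 94.4% and Smox above 55.2%. Levels of Odc1, Oaz1, Amd1 and Sms are uncertain, since RefSeq lists 10, 2, 3 and 2 pseudogenes of them by name, none of which has a row in the files, and how reads shared with them were counted is not given in the sources used here.

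Much of the spread between replicates was shared by the films. Of 24 pairs of deviations from the film mean, on log2(FPKM + 1), taken for 8 genes and 3 replicate numbers, 20 had the same sign in ISB-P and PCL. These pairs are not independent, since the deviations of a gene are taken from their own mean. The pattern was not particular to these genes. Over all 9467 genes tested, the deviations of same-numbered libraries correlated by 0.887, 0.431 and 0.867 in replicates 1, 2 and 3. Azin1 deviated by -0.84, -0.02 and 0.86 in ISB-P replicates 1, 2 and 3 and by -0.74, 0.29 and 0.45 in PCL. Replicate 1 was the lowest library on both films for Azin1, Odc1, Amd1, Sms and Sat1, and the highest for Oaz1 and Smox. For Odc1 the deviations were smaller, between -0.28 and 0.30 on ISB-P and between -0.25 and 0.19 on PCL. The summed FPKM of all genes also varied, from 590628 to 660124 on ISB-P and from 542921 to 597954 on PCL, and was highest in replicate 3 of each film, which is the library with the highest Azin1, Odc1, Amd1, Sms and Sat1. Its part in these deviations was not tested.

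TCP had 1 library, and no test was made against it. For 8.98% of all genes the ISB-P mean was over 2-fold above TCP and for 4.28% over 2-fold below, on the ratio of FPKM + 1. Azin1 was the one member above this limit with all libraries, at 2.74-fold, and none was below it. This count turned on 1 library. Without ISB-P replicate 3, Azin1 was 0.92 above TCP on the log2 scale, where 2-fold is 1, and was no longer past it. Without ISB-P replicate 1, Odc1 (1.06), Amd1 (1.08) and Sms (1.10) were past it too. The PCL mean was over 2-fold above TCP for 5.56% of genes and below for 3.04%, with none of the members in either. Odc1 was 1.91-fold above TCP on ISB-P and 1.19-fold on PCL. Amd1 and Sms, for which the films gave no direction between them, were above TCP on both: Amd1 was 1.84-fold on ISB-P and 1.72-fold on PCL, and Sms was 1.83-fold and 1.66-fold. All 6 film libraries were above TCP for these 2 genes. The share of all genes with this pattern was not counted, so nothing particular to Amd1 and Sms is read from it. The film means of Oaz1, Oaz2 and Sat1 were between 0.858-fold and 1.01-fold of TCP, and that of Smox was 1.25-fold on ISB-P and 0.897-fold on PCL. Single film libraries spread more widely, from 277 to 530 FPKM for Oaz1 (439 FPKM on TCP) and from 57.9 to 101 FPKM for Sat1 (81.1 FPKM on TCP). The summed macrophage, osteoblast, adipocyte and mesenchymal markers given above were all higher on TCP than on any film. The mesenchymal sum was mostly Col1a1, and within it Itgb1 and Nt5e had means above TCP on both films. The part of these markers in the ratios to TCP was not tested. In bulk RNA, fewer cells of a type cannot be told apart from less RNA per cell.

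**Figure D4:**
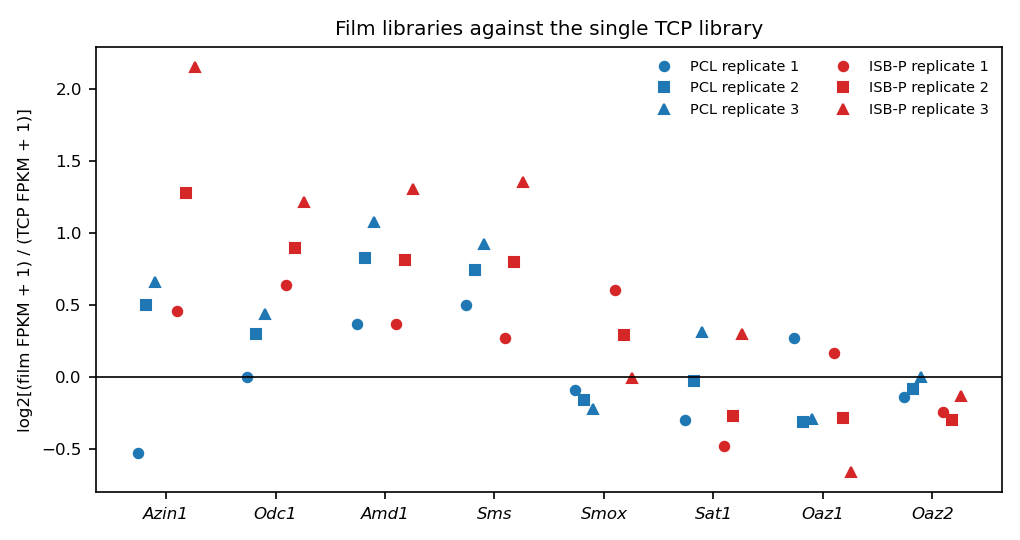
Log2 ratio of each film library to the 1 TCP library, on FPKM + 1, for 8 polyamine genes, with PCL in blue, ISB-P in red and one marker shape for each replicate number. All 6 film libraries lie above 0 for Amd1 and Sms, the 3 ISB-P libraries lie above 0 for Azin1 and Odc1, and Oaz2 lies close to or below 0 throughout.

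Genes around the core pathway were taken from a list of 45, of which 44 were in the files (Azin2 under its older symbol Adc) and 33 passed the filter. The list has genes of ornithine and arginine supply, S-adenosylmethionine supply, salvage of the methylthioadenosine that spermidine and spermine synthesis release, further catabolism, transport, hypusine formation from spermidine, and the Myc network. None of the 33 was called in either direction by limma without a block. At an unadjusted p under 0.05 the same test gave 2 of 33 higher, Slc3a2 and Slc7a1, and 0 lower, against 5.51% and 6.58% of all genes. Their median difference was 0.03 (log2), against 0.02 over all genes tested, and 20 of 33 were above 0, as were 5005 of all 9467. With the replicate block, 5 of 33 were called higher (Mat2a, Atp13a3, Slc3a2, Slc7a1 and Eif5a2) and 2 lower (Mri1 and Mxd4), against 13.0% and 11.4% of all genes. Nothing particular to the list is read from these counts.

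Of the 7 transport genes tested, 3 were called higher with the block and 0 lower, against 13.0% and 11.4% of all genes, and with so few genes nothing particular to transport is read from it. Slc3a2, the heavy chain shared by several amino acid transporters, was at 258, 249 and 223 FPKM on ISB-P, at 162, 165 and 160 FPKM on PCL and at 143 FPKM on TCP. The films did not overlap, and the difference was 0.58 ± 0.12 (log2, SE), with a limma adjusted p of 0.0723 without a block and 6.51e-04 with it. Slc7a1, a carrier of arginine and other cationic amino acids, was at 26.7, 27.9 and 28.8 FPKM on ISB-P, at 20.3, 23.2 and 20.2 FPKM on PCL and at 12.3 FPKM on TCP. It did not overlap either, with a difference of 0.37 ± 0.12 (log2, SE) and a limma adjusted p of 0.254 without a block and 0.0106 with it. Slc7a2, another cationic amino acid carrier, went the other way with no overlap. It was at 7.39, 8.60 and 7.80 FPKM on ISB-P and at 8.61, 9.57 and 9.78 FPKM on PCL. Its difference was -0.21 ± 0.12 (log2, SE), with a limma adjusted p of 0.616 without a block and 0.0970 with it. With the block and every library scaled to the same total, it was called lower (limma adjusted p = 0.0246). Atp13a3, a transporting ATPase linked to polyamine uptake, was at 7.50, 7.56 and 10.8 FPKM on ISB-P and at 6.25, 3.74 and 8.03 FPKM on PCL (0.49 ± 0.26 in log2, limma adjusted p = 0.572 without a block and 0.0199 with it). Cav1, the caveolin that was the most abundant gene of this group at 845 ± 202 and 823 ± 168 FPKM (ISB-P and PCL, SD, n = 3), was not called in either fit.

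Among the other groups, Mat2a, the catalytic subunit that makes S-adenosylmethionine outside the liver, was at 132, 158 and 232 FPKM on ISB-P and 111, 126 and 163 FPKM on PCL. Its difference was 0.36 ± 0.24 (log2, SE), with a limma adjusted p of 0.721 without a block and 0.00883 with it. Eif5a2, the less abundant form of the translation factor that carries hypusine, was at 4.57, 8.22 and 13.2 FPKM on ISB-P and 3.21, 6.10 and 8.36 FPKM on PCL, with a limma adjusted p of 0.837 without a block and 0.00689 with it. Its abundant relative Eif5a was at 1113 ± 54.5 FPKM on ISB-P and 1044 ± 75.9 FPKM on PCL (SD, n = 3) and was not called in either fit. Mri1, an isomerase of methylthioadenosine salvage, was 0.816, 0.756 and 0.610 times its PCL level on ISB-P in replicates 1, 2 and 3 (limma adjusted p = 0.589 without a block and 0.0166 with it). Mxd4, a partner of Max that represses transcription, was 0.693, 0.876 and 0.754 times its PCL level (limma adjusted p = 0.810 and 0.0199). Myc itself was at 99.7, 87.4 and 75.7 FPKM on ISB-P, at 82.2, 74.7 and 76.7 FPKM on PCL and at 39.3 FPKM on TCP, and was not called in either fit. Mtap and Sat2, the most abundant genes of methylthioadenosine salvage and of further catabolism, were also not called, with ISB-P to PCL ratios of the means of 1.02 and 0.980. Slc3a2, Slc7a1, Eif5a2 and Mri1 were called in all 6 fits with a block, which reuse the same libraries. Mat2a missed in 1 (limma adjusted p = 0.0536 with quantile normalization), Mxd4 in 1 (0.143 without replicate 1) and Atp13a3 in 2 (0.0544 with every library scaled to the same total and 0.0906 without replicate 2). Blocked fits of 2 pairs, which are among the 6, leave 1 residual degree of freedom for a gene and lean on the variance of all genes. Their low p-values are therefore not given, and their calls carry little weight. Over the 20 other settings the limma adjusted p of each of the 7 genes reached 0.9995, without replicate 2 of both films and with no block, and its lowest value was between 6.51e-04 for Slc3a2 and 0.0199 for Atp13a3.

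**Figure D5:**
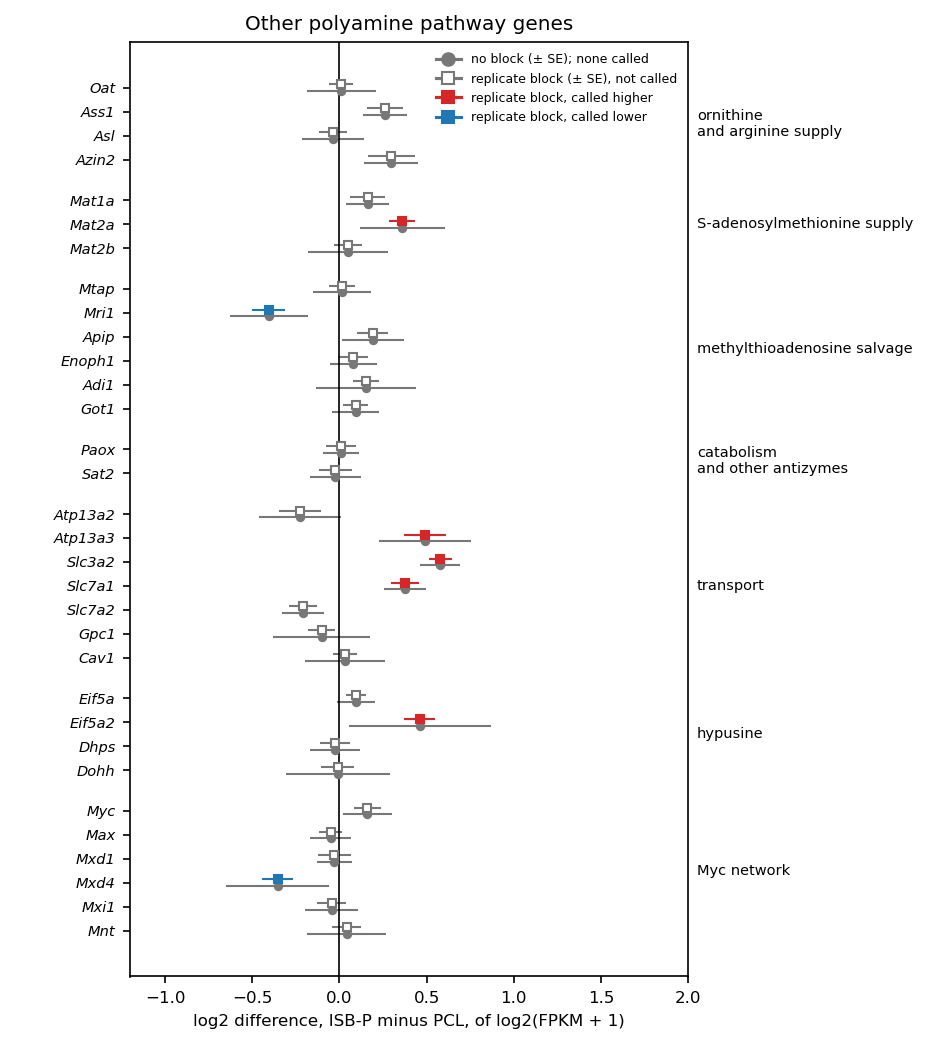
Difference of log2(FPKM + 1), ISB-P minus PCL, with its SE for other polyamine pathway genes by group, as grey circles without a replicate block and as squares with it (filled red if called higher, filled blue if called lower, open if not called). The estimates are the same in both fits and the errors are shorter with the block, where 5 genes are called higher and 2 lower.

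The genes whose pattern over the 7 libraries was most like that of Azin1, by Pearson's r on log2(FPKM + 1) among 4803 genes whose mean reached 16 FPKM, were Gulp1 (0.996), Rab5a (0.991), Msmo1 (0.989), Eif1 (0.989) and Rybp (0.9885). Gulp1, an adaptor of cell engulfment, was at 20.4, 40.9 and 90.5 FPKM on ISB-P and 9.47, 21.3 and 27.3 FPKM on PCL, so that replicate 3 of ISB-P was the highest library here too. Those most like Odc1 were Med13 (0.996), Arrdc3 (0.9945), Nfx1 (0.992) and Ptgfr (0.991). Med13, a subunit of the Mediator complex, was at 25.6, 32.5 and 53.7 FPKM on ISB-P, at 11.9, 17.8 and 19.8 FPKM on PCL and at 12.6 FPKM on TCP, and its films did not overlap. Within the pathway, r with Azin1 was 0.949 for Odc1, 0.79 for Amd1, 0.78 for Sms, 0.46 for Sat1, -0.28 for Oaz2 and -0.88 for Oaz1. The 7 points share the film groups and the replicate pattern described above, and these correlations describe likeness only.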

How the data were processed

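Per the labels, TruSeq stranded mRNA libraries were made from total RNA. The submitters' processing notes name bcl2fastq 2.20.0.422, cutadapt 1.18, TopHat2 2.0.13, Cuffdiff 2.2.1 and build rn5. The authors deposited one value per gene symbol and library, taken here as FPKM from the tools named and from values that are neither whole nor of equal sum. Read depth is not given in the sources used here, so no counting error is given. Values were used as deposited. ISB-P and PCL were compared with limma 3.58.1 in R 4.3.3 (mean-variance trend, two-sided, Benjamini-Hochberg over 9467 genes) on log2(FPKM + 1), a scale that understates changes of low genes. The fit was tested on simulated data, of which no result is given here. TCP (1 library) was not tested. Deviations of same-numbered ISB-P and PCL libraries from their film means correlated across genes by 0.887, 0.431 and 0.867, so the numbers were taken to pair the libraries, and the blocked fit is given beside the unblocked one. The sources used here do not say whether same-numbered libraries were cultured or prepared together. The pairing thus rests on the same values that the blocked fit uses. The members and gene lists were chosen with earlier results of these data known. The text names all members, the listed pathway genes called in either fit, the most abundant of each group and the 5 genes most like Azin1 and Odc1. Slc7a2 is named beside Slc7a1 and falls outside these rules. Of the genes these rules name, 2 are not reported here. Figures used matplotlib 3.10.9.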

Additional observations from a re-analysis of the deposited data

How the results depend on the processing

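Without a block, none of the 8 members and none of the 33 other pathway genes was called by limma under the other scalings, filters and pseudocount, with TCP in the fit, without the trend or without any library. At an adjusted p under 0.05, the calls of these genes thus rest on the pairing of replicate numbers. The replicate block called 1228 genes higher and 1079 lower, with 3 members and 5 pathway genes higher and 2 pathway genes lower. All 104 and all 59 genes called higher and lower without the block were called with it. The block with every library scaled to the same total, added after seeing the data, gave 711 higher and 2111 lower, with 3 members higher and 2 lower (Oaz2 and Sat1), and 4 pathway genes higher and 3 lower. The block with quantile normalization, also added, gave 1084 and 1226, with 3 and 2 members and 4 and 2 pathway genes. Scaling to the same total moved the median difference of all genes by -0.10 (log2). Relative to that median Azin1 was at 1.057, against 1.066 as deposited, and Oaz2 at -0.18, against -0.17. Over all genes, 39 were called lower with upper quartile scaling, 35 with 1 FPKM required in all 6 film libraries and 38 without the trend, against 59. The study's thresholds were a fold over 2, a p under 0.1 and normalized values over 16. Read here as an unadjusted p and a mean of 16 FPKM, they gave 58 higher and 7 lower, with 1 member higher, Azin1, and 0 lower, and 0 pathway genes. With libraries left out, with or without the block, calls ranged from 0 to 1758 higher and 0 to 1379 lower, members from 0 to 3 higher and 0 to 2 lower, and pathway genes from 0 to 7 higher and 0 to 2 lower. The lowest counts came without replicate 2 of both films in the fit with no block and the highest without replicate 3 in the fit with the block, which was added after seeing the data. The causes were not tested. The lowest difference over the settings tried was 0.65 for Azin1 and 0.52 for Odc1 (log2), both without ISB-P replicate 3. Amd1 turned sign with quantile normalization (to -0.05) and with the same total (to -0.04), and Sms with the same total (to -0.03). Precision rests on 3 libraries a film and 1 on TCP. Count tests were not run, since the values are not counts.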
